A study of Mus musculus with 19 samples.

Results

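The liver response to an antisense oligonucleotide (ASO) against Plin5 was described in fasted mice. An ASO is a short synthetic nucleic acid that pairs with a chosen RNA and lowers it. The comparison rests on 9 of the 19 RNA-seq libraries of the series: 5 of fasted PLIN5 ASO liver (numbered 1 to 5) and 4 of fasted control ASO liver (numbered 1, 3, 4 and 5), taken by their labels for ASO and feeding. All of these mice ate a purified normal diet, received 2 ASO injections a week over 3 weeks and were fasted overnight, so the control livers too had been exposed to an oligonucleotide. The 5 re-fed PLIN5 ASO and 5 re-fed control ASO libraries, from mice given the same injections and the same fast followed by 4 h of food, serve here only as the second feeding state. The sources used here do not state strain, sex, age or the ASO sequences. The labels name 1 ASO against Plin5, so a response to lower Plin5 and any further action of that compound cannot be told apart. Whether each replicate is its own animal is not stated; if it is not, the p-values measure the spread between samples, which may be technical. The series title concerns autophagy in fasting and inflammation, and gene lists for both were followed together with lists for lipid handling, stress responses and the cell types of liver.

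Perilipin 5 coats lipid droplets in cells that burn fat, such as those of heart, muscle, brown fat and fasted liver. It binds adipose triglyceride lipase (ATGL, gene Pnpla2) and its coactivator at the droplet and tethers droplets to mitochondria. In fasting the liver takes up fatty acids from adipose tissue, stores part of them in droplets, and oxidises them under the transcription factor PPAR alpha and the coactivator PGC-1 alpha, whose activity the deacetylase SIRT1 raises. Liver is also the main source of acute phase proteins, which hepatocytes make in response to interleukin 6 and interleukin 1.

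Depth was even, and some libraries stood apart before any test. Total counts were 28210530 to 33949977 per fasted control ASO library and 28705975 to 31816723 per fasted PLIN5 ASO library. The tested genes held at least 99.96% of them. Levels below are CPM, counts scaled to 1000000 per library after TMM normalisation, in the order control ASO 1, 3, 4, 5 and PLIN5 ASO 1 to 5. Control ASO 3 and 4 were closer to each other than any other of the 16 pairs within the fasted groups. Their chi-square over genes per degree of freedom was 3.21, against 18.4 for the next pair and up to 218. That is above sampling noise, and they were kept as 2 samples, with counts of calls repeated after the pair was merged into 1 sample. The clock output gene Dbp was low in a pair of treated livers: number 3 held 4.805 CPM and number 5 held 18.9 CPM. The remaining treated libraries spanned 100.1 to 137 CPM, and controls spanned 134 to 160.4 CPM. PLIN5 ASO 3 and 5 are called clock-shifted from here on, as are re-fed control ASO 3 and 5, which also had low Dbp. Counts of calls are repeated without the clock-shifted libraries, meaning that all 4 were left out of the fit. Hepatocyte markers were abundant in each library: their summed level was 101790 to 118840 CPM in controls and 97955 to 131179 CPM with PLIN5 ASO.

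Plin5 itself was lower in every PLIN5 ASO library. The gene lies at chromosome 17, 56111601 to 56117596, on the minus strand of GRCm38. Its level was 35.1, 36.3, 38.5 and 37.8 CPM in controls and 7.69, 6.15, 12.6, 6.14 and 13.1 CPM with PLIN5 ASO. The highest PLIN5 ASO library, number 5, thus held 13.1 CPM and the lowest control 35.1 CPM. The log2 fold change was -2.01 (SE 0.28, 95% interval -2.60 to -1.43), with an adjusted p = 0.00257 over all genes tested (quasi-likelihood F test of edgeR). The clock-shifted libraries 3 and 5 kept the most Plin5 RNA of the treated livers, and without the clock-shifted libraries the log2 fold change was -2.47.

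**Figure D1:**
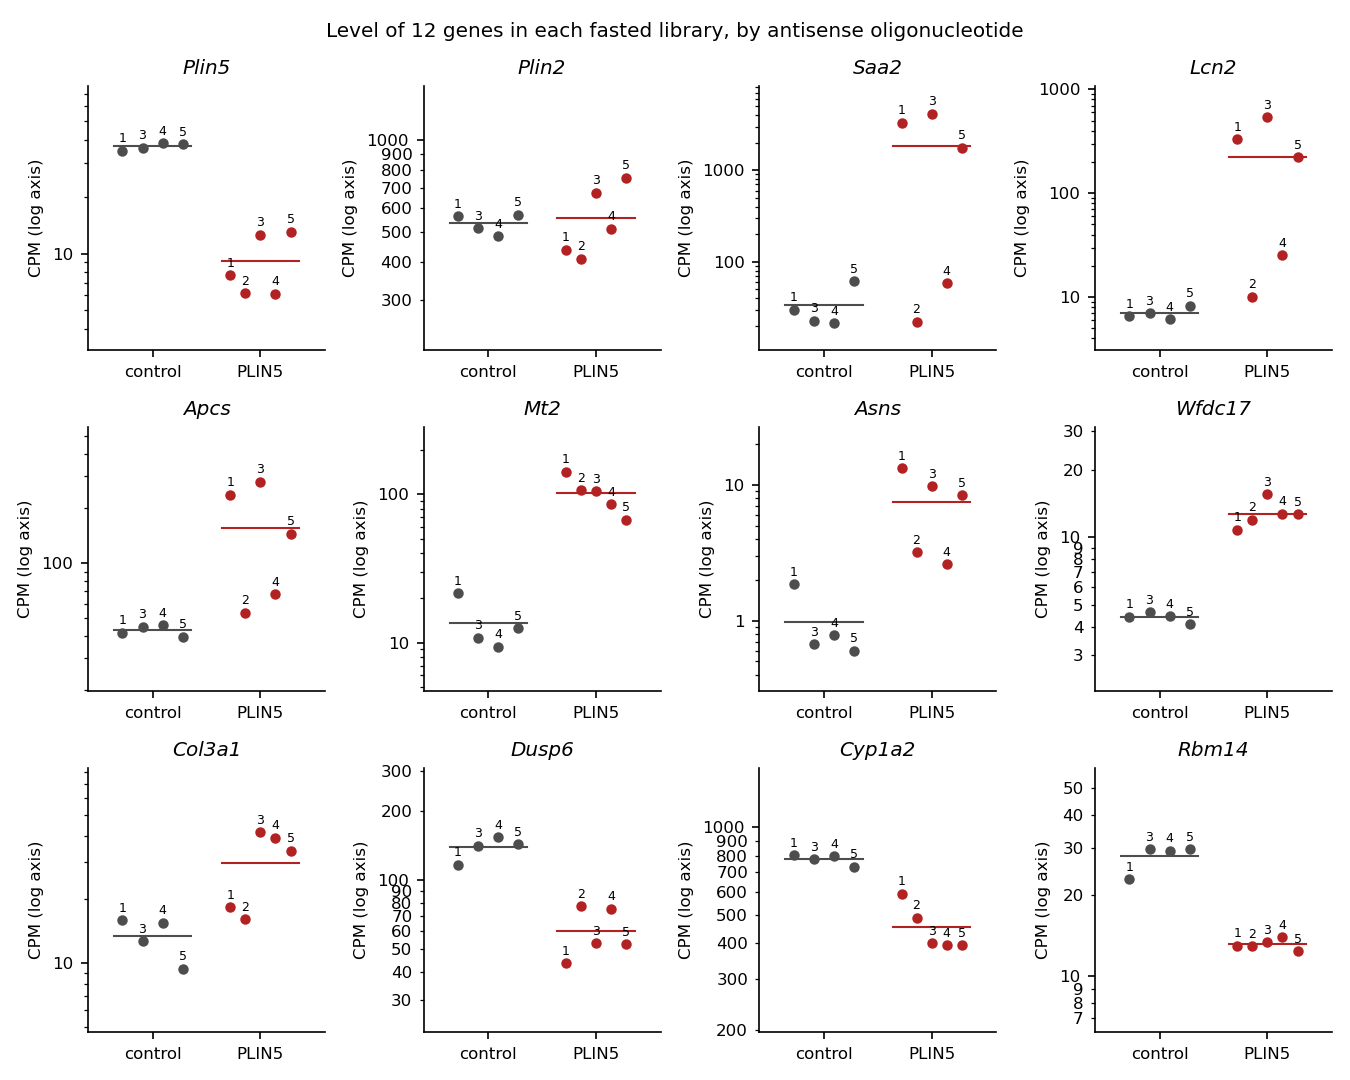
Level in CPM (log axis) of 12 genes in each fasted library; each point is 1 library with its number, and the line is the group mean. Plin5 was at 35.1 to 38.5 CPM in the 4 controls and at 6.14 to 13.1 CPM in the 5 PLIN5 ASO libraries, and Saa2 was at 1757 to 4152 CPM in PLIN5 ASO 1, 3 and 5 and at most 61.9 CPM in the other 6 libraries.

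Few genes were called in fasted liver. Of 13293 genes tested, 156 were called at an adjusted p under 0.05 by edgeR's quasi-likelihood test (1.17%): 80 rose (0.602%) and 76 fell (0.572%). Of these, 36 rose and 19 fell at least 2-fold. Unadjusted p was under 0.05 in 2003 of the 13293 genes. Counts at that level in the gene lists below are to be read against this share. All 5 PLIN5 ASO libraries lay above every control for 382 genes (2.87%) and below every control for 566 genes (4.26%), 948 genes (7.13%) in all, and 144 of the 156 called genes were among them. The 12 largest rises with at least 2 CPM in a group included Saa2, Lcn2, Saa1, Asns, Mt2, Apcs, Fgl1, Wfdc17, Armcx4, Cpne8 and Ctss. The 12 largest falls included Ncam2, Hamp2, Plin5, Btbd19, Gsta2, Plk2, Dusp6, Ddah1, Gas1, Mid1ip1 and Rbm14.

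The number of calls rests on single libraries. Leaving out control ASO 1, 3, 4 or 5 gave 46, 40, 31 or 22 calls. Leaving out PLIN5 ASO 1 to 5 in turn gave 150, 186, 64, 102 and 43. With control ASO 3 and 4 merged 36 genes passed, and without the clock-shifted libraries 115 passed, of which 59 were among the 156. All 156 kept their direction in each of these runs. In every run that left out 1 fasted library 18 genes passed, and they also passed both with control ASO 3 and 4 merged and without the clock-shifted libraries. The rises among these 18 were Lcn2, Wfdc17, Armcx4, Tnc, Rnf144b, Apex2, Rnf169 and 8430419L09Rik, and the falls included Plin5, Ncam2, Btbd19, Plk2, Rbm14, Mid1ip1, Cyp1a2, Id2 and Abca3. For other called genes, the number of these 9 runs in which the call held is given beside their values.

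**Figure D2:**
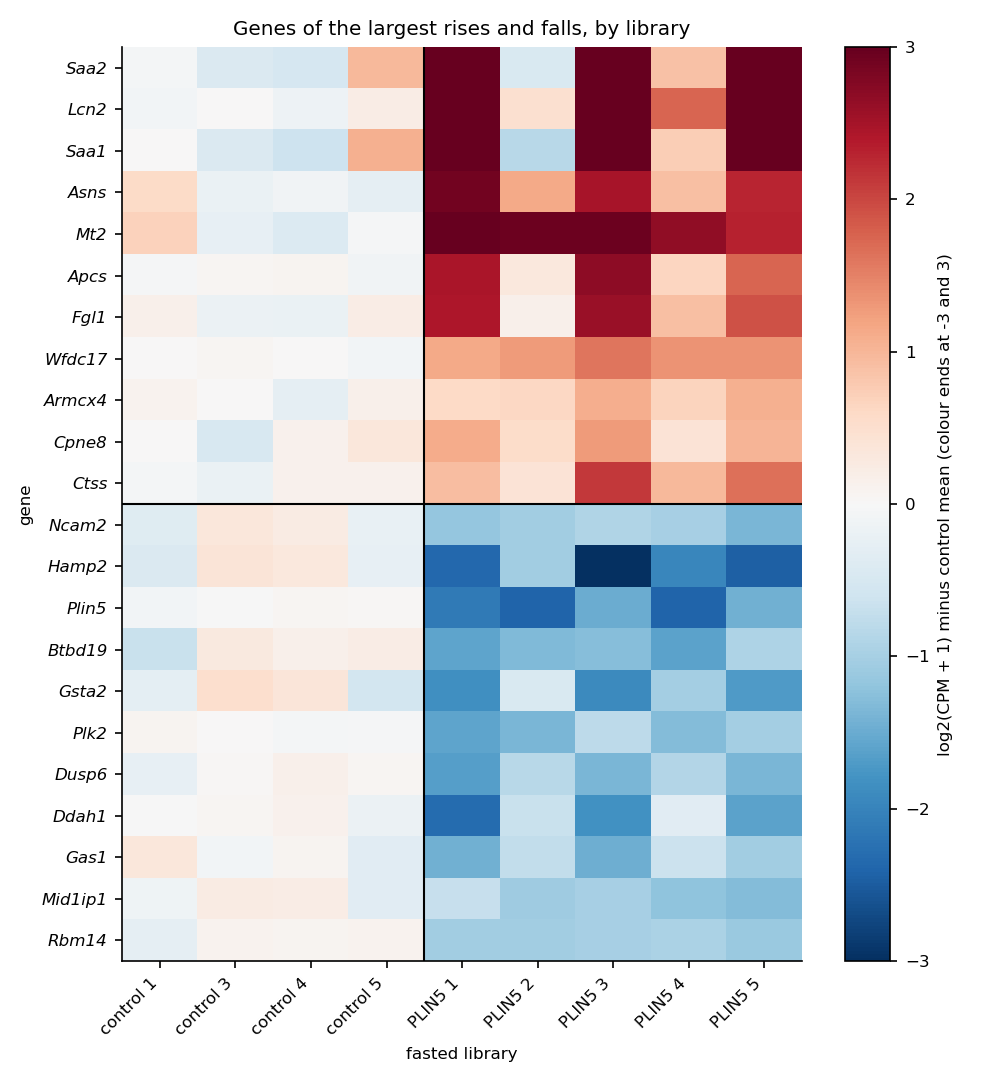
Named genes of the 12 largest rises (upper block) and 12 largest falls (lower block) in each fasted library, as log2(CPM + 1) minus the mean of the 4 controls (colour, ending at -3 and 3). Saa1, Saa2, Lcn2, Apcs and Fgl1 are darkest in PLIN5 ASO 1, 3 and 5, while Mt2, Wfdc17, Ncam2 and Rbm14 are shifted in all 5 PLIN5 ASO libraries.

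Plin5 was the only gene called among those that coat lipid droplets or build and break down their triglyceride. In this list 1 of 27 genes tested fell and none rose by edgeR, against 0.572% and 0.602% of all genes. An unadjusted p under 0.05 was found in 4, against 2003 of all 13293 genes, and DESeq2 called 4. The median log2 fold change was -0.14, against 0.01 over all genes tested. Plin2, which encodes the major droplet coat protein of hepatocytes, stood at 565, 516, 485 and 572 CPM in controls and 438, 410.0, 675, 514 and 754 CPM with PLIN5 ASO (log2 fold change 0.06, SE 0.19, adjusted p = 0.917). Its 2 highest values of the 9 were those of the clock-shifted libraries, the groups overlapped, and without the clock-shifted libraries the log2 fold change was -0.23. Pnpla2, the ATGL gene, was at 120.2 to 150.3 CPM in controls and 99.02 to 147 CPM with PLIN5 ASO (-0.15, 95% interval -0.50 to 0.20). Lpin1, which encodes the phosphatidic acid phosphatase lipin 1 and a coactivator of PPAR alpha, stood at 22.8, 57.6, 61.3 and 40.6 CPM in controls and 158, 196, 91.3, 254 and 111 CPM with PLIN5 ASO. All 5 PLIN5 ASO values lay above the 4 controls, but the difference did not pass (1.83, SE 0.53, adjusted p = 0.0984). By edgeR it passed without the clock-shifted libraries (2.15, adjusted p = 0.0285) and in a fit of the 9 fasted libraries (adjusted p = 0.0439). DESeq2 called it too (adjusted p = 0.0213). It passed in 0 of 9 runs that left out 1 library and not with control ASO 3 and 4 merged (adjusted p = 0.172 by edgeR). The seipin gene Bscl2 (-0.27, SE 0.08, adjusted p = 0.0875) and the lipase gene Aadac (-0.27, SE 0.07, adjusted p = 0.0766) had all PLIN5 ASO values below the controls without passing. G0s2, whose product inhibits ATGL, ranged from 289.6 to 598 CPM in controls and from 110.4 to 349.7 CPM with PLIN5 ASO (adjusted p = 0.422). Mid1ip1, outside the list, encodes a protein that activates acetyl-CoA carboxylase. It fell from 36.5, 47.1, 46.5 and 31.1 CPM to 24.3, 18.3, 19.3, 16.5 and 15.5 CPM (-1.10, SE 0.17, adjusted p = 0.00294), with no overlap between the groups. Lipc, the hepatic lipase gene, chosen after its values were seen, fell by a smaller step, from 206 to 242 CPM to 162 to 180.4 CPM (-0.41, SE 0.07, adjusted p = 0.013; called in 8 of 9 runs that left out 1 library).

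Genes of fatty acid oxidation showed no call, and their log2 fold changes lay between -0.28 and 0.77. Of 28 genes of fatty acid oxidation and ketogenesis none passed by edgeR or by DESeq2, and 1 had an unadjusted p under 0.05 (median log2 fold change 0.02). That gene was Slc16a1, which had the largest change of the list (0.77, adjusted p = 0.292 by edgeR). Cpt1a, which encodes the rate-limiting step of fatty acid entry into mitochondria, stood at 435 to 516 CPM in controls and 428 to 661 CPM with PLIN5 ASO (0.19, 95% interval -0.24 to 0.63, adjusted p = 0.726). The interval bounds the change within less than 2-fold either way.

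The PPAR alpha, PGC-1 and sirtuin genes had no call either. None of 28 passed by edgeR, 5 had an unadjusted p under 0.05, against 2003 of all 13293 genes, and DESeq2 called 2 (median log2 fold change 0.04). Without the clock-shifted libraries, and in a fit of the 9 fasted libraries, edgeR called 1, Lpin1. Sirt1 stood at 13.1, 11.8, 15.6 and 13.3 CPM in controls and 12.9, 11.1, 12.7, 12.6 and 13.4 CPM with PLIN5 ASO (-0.11, 95% interval -0.31 to 0.10, adjusted p = 0.668). The groups overlapped, with PLIN5 ASO 2 below every control and control ASO 4 above every treated library. Ppargc1a, the PGC-1 alpha gene, stood at 10.9, 10.4, 10.7 and 5.13 CPM and 9.19, 11.04, 12.9, 12.3 and 14.2 CPM (0.36, SE 0.21, adjusted p = 0.451), where control ASO 5 was lowest. Ppara was at 467 to 498 CPM and 369 to 605 CPM (0.02, SE 0.15, adjusted p = 0.97). Angptl4, a PPAR alpha target whose product inhibits lipoprotein lipase, held 86.96, 171, 169.6 and 185 CPM in controls and 237, 243, 309, 245 and 321 CPM with PLIN5 ASO. Each PLIN5 ASO value exceeded each control (0.83, SE 0.26, adjusted p = 0.126). Esrra, the gene of the PGC-1 partner ERR alpha, lay lower in all 5 (-0.39, SE 0.13, adjusted p = 0.154).

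Autophagy, which delivers cytoplasm and organelles to the lysosome, is run by the ULK1 and BECN1 complexes, by the conjugation of LC3 to membranes through ATG7, and by cargo receptors such as SQSTM1. None of 48 genes of this machinery was called by edgeR or DESeq2. An unadjusted p under 0.05 was found in 2 genes that were higher and 7 that were lower, against 1002 and 1001 of all 13293 genes. The median log2 fold change was -0.0049, with all genes of the list between -0.43 and 0.43. Ulk1 held 61.05, 62.2, 68.02 and 67.4 CPM in controls and 72.3, 72.3, 71.9, 69.1 and 71.7 CPM with PLIN5 ASO, so that each treated library exceeded each control by a small step (0.14, SE 0.09, adjusted p = 0.455). Becn1 was at 36.996 to 40.9 CPM and 35.7 to 41.02 CPM (-0.03, 95% interval -0.16 to 0.11). Atg7 was at 43.2 to 53.9 CPM and 34.6 to 45.7 CPM (-0.21, 95% interval -0.39 to -0.02, adjusted p = 0.263). Among the LC3 genes, Map1lc3b stood at 96.8 to 102 CPM and 102 to 122 CPM (0.17, SE 0.10), and Map1lc3a lay lower in each PLIN5 ASO library without passing (-0.31, SE 0.11, adjusted p = 0.202). The cargo receptor gene Sqstm1 held 369, 325, 325 and 316 CPM in controls and 296, 286, 390.0, 280.0 and 392 CPM with PLIN5 ASO. Its highest values were in the clock-shifted libraries (-0.02, SE 0.12, adjusted p = 0.953). Tfeb, the transcription factor of lysosome genes, was lower in all 5 PLIN5 ASO libraries, at 10.02, 9.31, 6.95, 9.23 and 6.87 CPM against 12.1, 11.6, 10.8 and 10.9 CPM, and did not pass (-0.43, SE 0.16, adjusted p = 0.213).

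Lysosome genes had 1 rise of 38, Ctss, against 0.602% of all genes that rose, with a median log2 fold change of -0.01 for the list. Ctss encodes cathepsin S, a protease made largely by macrophages and other antigen-presenting cells. It rose from 10.8, 9.71, 12.5 and 12.6 CPM to 22.2, 15.4, 52.5, 23.2 and 37.6 CPM (1.41, SE 0.29, adjusted p = 0.0258; called in 3 of 9 runs that left out 1 library). PLIN5 ASO 3 and 5 held the highest values, and no treated library overlapped the controls. The lysosomal membrane gene Lamp1 was at 805 to 939 CPM and 772 to 861 CPM (-0.11, 95% interval -0.25 to 0.03), and the sialidase gene Neu1 lay lower in each treated library without passing (-0.30, SE 0.08, adjusted p = 0.0753). These RNA levels measure transcripts, not autophagic flux.

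Acute phase genes held 6 of the 12 largest rises. Of 40 genes tested in this list 12 rose and 2 fell, against 0.602% and 0.572% of all genes tested, and the median log2 fold change was 0.42 against 0.01. The rises were Saa1, Saa2, Lcn2, Apcs, Fgl1, Lrg1, Mt2, Itih3, Itih4, Hp, Serpina3n and C4bp. The falls included Hamp2. The number called was 2 with control ASO 3 and 4 merged and 5 without the clock-shifted libraries. Leaving out control ASO 1, 3, 4 or 5 gave 2, 2, 2 or 1, and leaving out PLIN5 ASO 1 to 5 in turn gave 8, 19, 3, 17 and 5. The list was drawn up with earlier results of these samples known and is not independent evidence of its direction.

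The serum amyloid genes, whose products coat high density lipoprotein in inflammation, split the PLIN5 ASO group. Saa2 stood at 29.9, 22.8, 21.6 and 61.9 CPM in controls and 3297, 22.3, 4152, 58.1 and 1757 CPM with PLIN5 ASO. PLIN5 ASO 1, 3 and 5 were far above every control, whereas PLIN5 ASO 2 and 4 lay within the control range (5.77, SE 1.19, adjusted p = 0.0258; called in 3 of 9 runs that left out 1 library, and Saa1 in 2). Saa3, which macrophages and fat also make, showed the same division at 16.2, 6.72, 6.45 and 14.4 CPM against 177, 2.38, 365, 7.48 and 153 CPM and did not pass (3.69, SE 0.91, adjusted p = 0.0544). Saa4, the constitutive member, was at 458 to 546 CPM and 511 to 692 CPM (0.26, SE 0.16, adjusted p = 0.46). Lcn2, which encodes the siderophore-binding protein lipocalin 2, held 6.54, 7.03, 6.12 and 8.25 CPM in controls and 332, 10.1, 539.5, 25.5 and 222 CPM with PLIN5 ASO. All 5 treated libraries exceeded the controls, by a small step in PLIN5 ASO 2 and by a large one in 1, 3 and 5 (5.02, SE 0.83, adjusted p = 0.00707).

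The 250 bases before the starts of Saa1 and Saa2 are shown because the genes moved together and their reads are hard to assign to 1 of them. The sequences are from RefSeq (GRCm38.p6), 5′ to 3′ on the gene's strand, and capitals mark the bases that differ between them. Saa1 (chr7:46742981-46743230, minus strand) and Saa2 (chr7:46751583-46751832, plus strand) shared 238 of 251 aligned positions (94.8%).
Saa1: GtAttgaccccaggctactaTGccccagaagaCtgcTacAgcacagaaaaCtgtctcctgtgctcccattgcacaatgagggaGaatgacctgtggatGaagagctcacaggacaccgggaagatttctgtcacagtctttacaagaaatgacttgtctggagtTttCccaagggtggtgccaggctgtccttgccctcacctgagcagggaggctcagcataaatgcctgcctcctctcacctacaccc
Saa2: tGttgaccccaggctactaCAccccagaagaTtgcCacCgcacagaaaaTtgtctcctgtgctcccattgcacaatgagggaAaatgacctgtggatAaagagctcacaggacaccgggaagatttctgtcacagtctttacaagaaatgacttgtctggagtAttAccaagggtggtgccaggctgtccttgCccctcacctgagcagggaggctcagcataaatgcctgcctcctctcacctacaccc
The counting of reads that match both genes is not stated, so their separate values are uncertain. Neither sequence holds TTCNNNGAA (STAT) or the letters TTGCNNCAA on either strand. C/EBP sites of other spacing were not searched for, so the lack of TTGCNNCAA does not show that such sites are absent. TTCNNNGAA was in 9.72% of the 72 promoters of rising genes, 4.76% of the 84 of falling genes and 6.09% of all 12882 promoters of tested genes. TTGCNNCAA was in 1.39%, 2.38% and 1.25%. RefSeq promoters were found for 57 of the 80 genes that rose, 62 of the 76 that fell and 10109 of all tested. A match is a description of letters in this window only.

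Other secreted acute phase proteins followed the same order of libraries with smaller steps. Fgl1, a hepatocyte-secreted fibrinogen-like protein, held 222, 175, 174 and 232 CPM in controls and 1079, 222, 1211, 373 and 752 CPM with PLIN5 ASO, where only PLIN5 ASO 2 lay inside the control range (1.86, SE 0.38, adjusted p = 0.0248; 3 of 9 runs). Apcs, the serum amyloid P gene, held 41.5, 44.8, 45.7 and 39.5 CPM and 238, 53.6, 280.4, 67.7 and 145 CPM, with all treated values above the controls (1.87, SE 0.37, adjusted p = 0.0235; 5 of 9 runs). Lrg1, a leucine-rich glycoprotein of plasma, rose from 571 to 712 CPM to 2287, 753, 2215, 1028 and 1395 CPM (1.32, SE 0.28; 3 of 9 runs). The haptoglobin gene Hp rose from 3358 to 3445 CPM to 7824, 3780.2, 8149, 4244 and 5764 CPM (0.81, SE 0.19, adjusted p = 0.0434; 2 of 9 runs). In each of these 4 genes PLIN5 ASO 1 and 3 were the highest libraries and PLIN5 ASO 2 the lowest of its group. Serpina3n, Itih3, Itih4 and C4bp rose by 0.74, 0.99, 0.81 and 0.36 on the log2 scale, and their calls held in 4, 2, 2 and 2 of 9 runs. None of these 4 passed with control ASO 3 and 4 merged or without the clock-shifted libraries. Orm1, the orosomucoid gene, divided in the same way without passing (362 to 532 CPM in controls, 1592, 471, 1836, 523 and 1167 CPM with PLIN5 ASO, adjusted p = 0.0649). The fibrinogen genes Fga, Fgb and Fgg were at 0.24, 0.19 and 0.28 (adjusted p = 0.606, 0.627 and 0.464). The C-reactive protein gene Crp, a weak acute phase gene in mouse, lay higher in all 5 treated libraries by a small step (0.33, SE 0.13, adjusted p = 0.227).

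The metallothionein gene Mt2, which encodes a zinc-binding protein, rose in all 5 treated libraries, unlike the serum amyloids. Its level was 21.5, 10.8, 9.37 and 12.5 CPM in controls and 142, 106, 105, 86.1 and 67.4 CPM with PLIN5 ASO, with no overlap and with PLIN5 ASO 2 and 4 inside the range of the other 3 (2.90, SE 0.61, adjusted p = 0.0258; called in 4 of 9 runs). Its neighbour and close paralog Mt1 stood at 69.4, 49.1, 46.05 and 49.6 CPM and 325, 285, 176, 262 and 142 CPM, again without overlap (2.15, SE 0.56, adjusted p = 0.0649). The Mt2 promoter (chr8:94172368-94172617, plus strand, 250 bases from RefSeq, GRCm38.p6) is shown since metallothioneins are induced through short metal response elements. Capitals mark matches to TGCACNC or TGCGCNC on either strand.
Mt2: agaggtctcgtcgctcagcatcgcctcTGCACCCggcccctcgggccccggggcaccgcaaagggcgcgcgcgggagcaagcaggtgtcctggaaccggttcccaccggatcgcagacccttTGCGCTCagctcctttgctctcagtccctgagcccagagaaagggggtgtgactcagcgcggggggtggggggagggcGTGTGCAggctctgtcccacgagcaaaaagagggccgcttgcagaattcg
It holds 3 matches, at 223 to 217, 128 to 122 and 50 to 44 bases before the start, the last on the opposite strand. This motif is common: 25% of promoters of rising genes, 27.4% of promoters of falling genes and 29.0% of all promoters held at least 1 match.

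Hamp, the gene of hepcidin, the liver hormone that limits iron release into blood, and its paralog Hamp2 were lower, opposite to the acute phase proteins. Only Hamp2 was called. Hamp2 fell from 62.02, 109, 104 and 70.4 CPM to 15.5, 40.2, 4.25, 20.8 and 14.7 CPM (-2.18, SE 0.50, adjusted p = 0.0344; 1 of 9 runs). All treated values lay below all controls, and PLIN5 ASO 2 was the highest of its group. Hamp stood at 1513, 1074, 993 and 840.1 CPM and 703, 668, 566, 577 and 595 CPM, also without overlap, and did not pass (-0.83, SE 0.30, adjusted p = 0.182). Hamp and Hamp2 are close paralogs whose reads may be shared.

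Among cytokine signalling genes 3 rose, those of a pair of receptors and of an adhesion molecule. Il1r1, the interleukin 1 receptor gene, rose from 36.3, 61.2, 61.3 and 45.9 CPM to 102, 89.2, 141, 75.5 and 107 CPM without overlap (1.01, SE 0.18, adjusted p = 0.0119; 8 of 9 runs). Il6ra, the interleukin 6 receptor gene, rose from 14.998, 35.5, 32.4 and 20.96 CPM to 42.1, 70.7, 42.2, 54.2 and 44.4 CPM (0.97, SE 0.22, adjusted p = 0.0345; 2 of 9 runs), with the highest value in PLIN5 ASO 2. Vcam1, which encodes a leukocyte adhesion molecule, rose from 3.63 to 5.07 CPM to 7.06 to 14.7 CPM (1.19, SE 0.27, adjusted p = 0.0334; 2 of 9 runs). These were 2 of 37 genes of NF-kB, TNF and interleukin 1 signalling (Il1r1 and Vcam1; median log2 fold change 0.02) and 1 of 22 of IL-6 and STAT3 signalling (Il6ra; median -0.06), against 0.602% of all genes that rose. With control ASO 3 and 4 merged, the counts were 1 and 0.

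Of the cytokine genes, Il6 and Tnf were at or near the limit of detection, and Il1b and Ccl2 were low. Il6 had 0 counts in 7 of the 9 libraries and 6 and 3 counts in PLIN5 ASO 3 and 5, and Tnf had 0 to 6 counts in any library, so both were left untested. Il1b stood at 0.543, 1.44, 1.47 and 1.81 CPM in controls and 0.233, 0.619, 2.69, 0.632 and 1.88 CPM with PLIN5 ASO (-0.11, SE 0.65, adjusted p = 0.959). Ccl2 was at 0.0916 to 0.420 CPM and 0.0351 to 0.325 CPM (adjusted p = 0.66). The NF-kB subunit gene Nfkb1 was at 18.3 to 21.9 CPM and 18.4 to 22.3 CPM (-0.01, 95% interval -0.20 to 0.18). Cebpd, the gene of an acute phase transcription factor, held 5.88, 12.4, 12.6 and 9.95 CPM and 13.6, 21.6, 14.1, 21.2 and 17.7 CPM, with each treated value above the controls, and did not pass (adjusted p = 0.119). The STAT3 feedback gene Socs3 was at 13.04 to 58.2 CPM and 7.52 to 17.7 CPM (-1.11, SE 0.38, adjusted p = 0.165). In the interferon response list 30 of 34 genes were higher, against 6911 of all 13293 genes. An unadjusted p under 0.05 was found in 7, against 2003 of all genes. By edgeR 1 rose, against 0.602% of all genes: Oas1g, which encodes an oligoadenylate synthetase. It rose from 0.354 to 0.714 CPM to 1.19 to 1.65 CPM (1.43, SE 0.29, adjusted p = 0.0258; 6 of 9 runs). The list's median log2 fold change was 0.14.

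Asns, which encodes asparagine synthetase and is a target of the transcription factor ATF4 in the integrated stress response, rose from a low level. It held 1.86, 0.672, 0.780 and 0.602 CPM in controls and 13.3, 3.19, 9.74, 2.598 and 8.34 CPM with PLIN5 ASO. All 5 treated libraries lay above the controls, with PLIN5 ASO 1, 3 and 5 highest (2.91, SE 0.66, adjusted p = 0.0345; 2 of 9 runs). Its promoter (chr6:7693210-7693459, minus strand, 250 bases from RefSeq, GRCm38.p6) is shown for a composite site of C/EBP and ATF factors. Capitals mark a match to TGATGNAA, searched on both strands.
Asns: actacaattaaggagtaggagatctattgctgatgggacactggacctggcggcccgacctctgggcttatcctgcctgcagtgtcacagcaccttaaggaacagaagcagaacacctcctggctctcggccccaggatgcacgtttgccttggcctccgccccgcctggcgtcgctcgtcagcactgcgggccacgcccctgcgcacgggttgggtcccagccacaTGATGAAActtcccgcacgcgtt
The match lies 23 to 16 bases before the start, and 2.78% of promoters of rising genes, 3.57% of those of falling genes and 2.11% of all promoters held this motif. Asns was the 1 rise among 29 genes of the integrated stress response and of serine, asparagine and one-carbon synthesis, and 1 gene fell. Over all genes tested 0.602% rose and 0.572% fell. The median of the list was 0.0024 on the log2 scale. The gene that fell was Slc3a2, which encodes the heavy chain of amino acid transporters (46.9 to 48.4 CPM in controls, 33.7 to 43.1 CPM with PLIN5 ASO, -0.35, SE 0.08, adjusted p = 0.0275; 2 of 9 runs). It did not pass with control ASO 3 and 4 merged (adjusted p = 0.0809) or without the clock-shifted libraries (adjusted p = 0.129). Atf3 lay lower in every treated library without passing (-1.57, SE 0.42, adjusted p = 0.072). By edgeR Atf3 passed without the clock-shifted libraries (-1.82, adjusted p = 0.045) and in a fit of the 9 fasted libraries (adjusted p = 0.0447). DESeq2 called it too (adjusted p = 0.0102). It passed in 0 of 9 runs that left out 1 library and not with control ASO 3 and 4 merged (adjusted p = 0.172 by edgeR). Atf4 was at -0.17 (SE 0.12, adjusted p = 0.564) and Ddit3 at -0.07 (SE 0.21, adjusted p = 0.918).

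Chaperones of the endoplasmic reticulum, where secreted proteins fold, had no call. The list also holds Selenbp2, which encodes a selenium-binding protein and not a chaperone (1.64, adjusted p = 0.18 by edgeR). Of the 25 genes of the list 21 were higher, against 6911 of all 13293 genes (median 0.13). None of the 25 passed by edgeR or DESeq2, and 3 had an unadjusted p under 0.05, against 2003 of all genes. The summed level of the list was 6485, 6807, 6816 and 6296 CPM in controls and 8416, 6313, 8793, 6036 and 8625 CPM with PLIN5 ASO. PLIN5 ASO 1, 3 and 5 lay above every control and PLIN5 ASO 2 inside and 4 below the control range, the same division of libraries as for the serum amyloids. The sum includes Selenbp2, whose part in this division was not tested. Derl3, a component of protein export from the endoplasmic reticulum, held 7.63, 2.44, 2.13 and 1.49 CPM and 13.1, 2.67, 38.9, 2.28 and 21.9 CPM (2.19, SE 0.82, adjusted p = 0.209).

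Macrophage genes were higher in the PLIN5 ASO group. All 21 Kupffer cell and macrophage markers had a positive log2 fold change, with a median of 0.78 against 0.01 over all genes, and 3 were called, against 0.602% of all genes that rose: C1qa, C1qb and Wfdc17. C1qb, which encodes a chain of complement C1q, rose from 15.8, 18.9, 17.98 and 18.8 CPM to 24.6, 22.9, 58.5, 33.98 and 42.99 CPM (1.03, SE 0.24, adjusted p = 0.0345; 2 of 9 runs). C1qa rose from 24.3 to 28.1 CPM to 32.3 to 72.7 CPM (0.89, SE 0.21; 2 of 9 runs). Wfdc17, a secreted protein of activated macrophages, rose from 4.43, 4.64, 4.44 and 4.11 CPM to 10.8, 12.01, 15.6, 12.8 and 12.7 CPM (1.54, SE 0.20, adjusted p = 0.001). Its rise was even over the 5 treated libraries, and it passed in every run that left out a library. The summed level of the markers was 226, 228, 235 and 239 CPM in controls and 272, 243, 581, 309.9 and 421 CPM with PLIN5 ASO. Every treated library was above every control, PLIN5 ASO 2 by the least and the clock-shifted 3 and 5 by the most. The Kupffer cell genes Clec4f (0.32, SE 0.24, adjusted p = 0.578), Vsig4 (0.65, SE 0.27, adjusted p = 0.259) and Timd4 (0.66, SE 0.29, adjusted p = 0.291) did not pass. Of the list, 1 gene passed with control ASO 3 and 4 merged and 1 without the clock-shifted libraries. It was also 1 without any single control and without PLIN5 ASO 3, 4 or 5. In bulk RNA, more cells of a type and more RNA per cell cannot be told apart.

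Collagen and matrix genes had rises only. Of 28 tested 4 rose and none fell, against 0.602% and 0.572% of all genes. The median was 0.53, and 27 were higher, against 6911 of all 13293 genes. Col3a1, a fibrillar collagen gene, held 16.03, 12.7, 15.6 and 9.45 CPM in controls and 18.4, 16.1, 41.7, 39.1 and 33.99 CPM with PLIN5 ASO (1.15, SE 0.26, adjusted p = 0.0333; 2 of 9 runs). Col1a2 held 6.74, 8.06, 7.26 and 6.05 CPM and 9.32, 8.400, 18.8, 19.1 and 17.9 CPM (1.06, SE 0.22, adjusted p = 0.0258; 2 of 9 runs). In both, PLIN5 ASO 3, 4 and 5 were high and 1 and 2 close to the controls, so the libraries rank here in another order than for the acute phase genes. Col14a1 and the proteoglycan gene Lum rose by 0.63 and 1.10 (each in 2 of 9 runs). Col1a1 was at 1.38 (SE 0.39, adjusted p = 0.0922). The glycoprotein gene Tnc, outside the list and chosen after its values were seen, rose from 0.212 to 0.457 CPM to 0.702 to 1.54 CPM (1.78, SE 0.29, adjusted p = 0.00707). None of the 4 called collagen and matrix genes passed with control ASO 3 and 4 merged, without the clock-shifted libraries, without any single control, or without PLIN5 ASO 3, 4 or 5. None of 16 stellate cell and fibroblast markers passed by edgeR (5 at an unadjusted p under 0.05, DESeq2 called 1). Their summed level was 339, 329, 341 and 302 CPM in controls and 309.7, 399, 382, 412 and 431 CPM with PLIN5 ASO, and its part in the collagen result was not tested.

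Other cell types were checked by the same kind of list. None of 19 liver endothelial markers passed by edgeR or DESeq2, and 6 had an unadjusted p under 0.05, against 2003 of all 13293 genes (median -0.17). The endothelial markers summed to 213 to 272 CPM in controls and 185 to 265 CPM with PLIN5 ASO. Lymphocyte markers summed to 49.2, 48.3, 48.4 and 46.6 CPM in controls and 35.8, 34.02, 116, 51.2 and 76.9 CPM with PLIN5 ASO, and neutrophil and monocyte markers to 5.74 to 6.41 CPM and 5.92 to 12.6 CPM, and the clock-shifted PLIN5 ASO 3 and 5 were highest for both. None of 12 and 5 tested genes passed by edgeR or DESeq2 (2 and 1 at an unadjusted p under 0.05). Of the pancreas, fat and blood markers 3 were tested and none passed by edgeR or DESeq2 (0 at an unadjusted p under 0.05, median 0.01). The pancreatic genes Amy2a5, Pnlip, Prss1 and Cpa1 had 0 counts in every fasted library. The globin genes Hba-a1, Hbb-bs and Hbb-bt were listed at 0 too, and Ass1, a urea cycle gene of hepatocytes, at 0.743 to 0.931 CPM in controls. Since the counting of reads from repeated genomic copies is not stated, these values are no measure of blood or of the urea cycle.

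**Figure D3:**
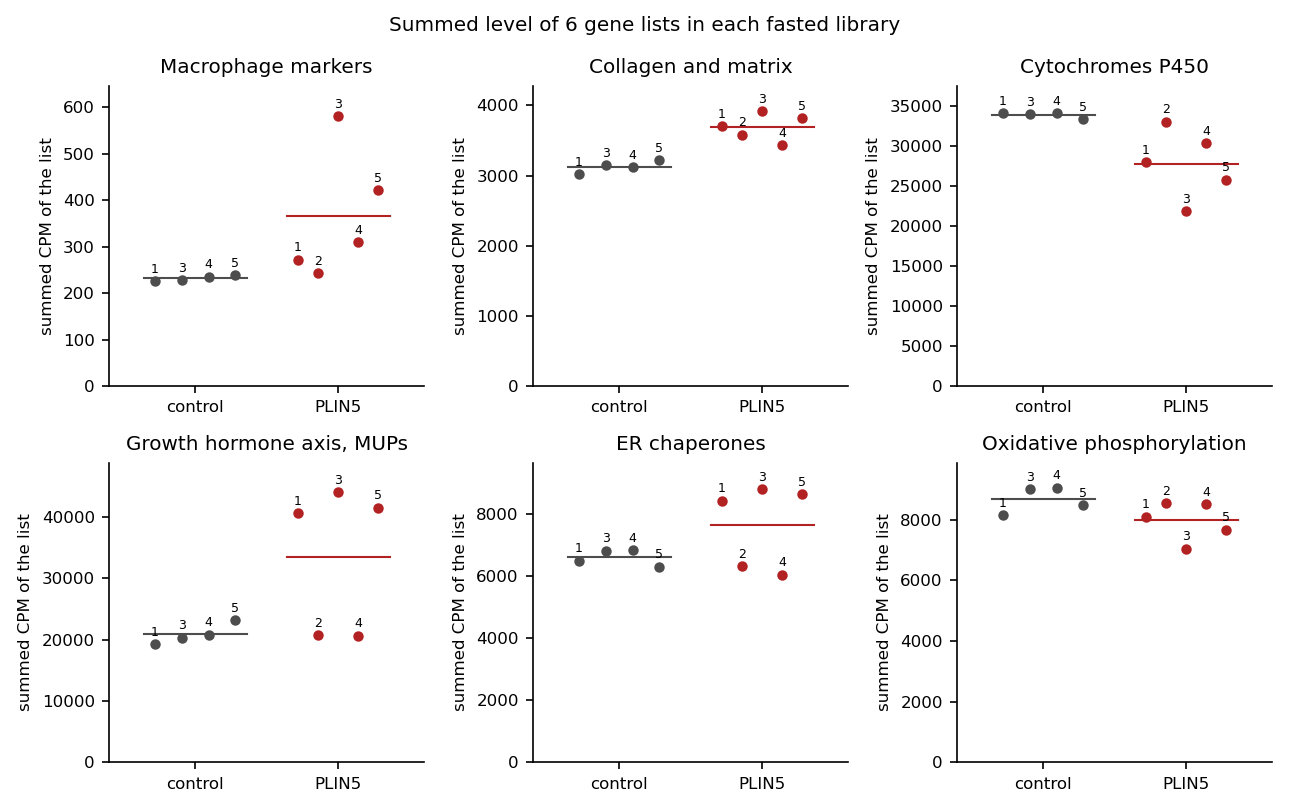
Summed CPM of 6 gene lists in each fasted library (points, numbered; lines are group means). Macrophage markers are above the controls in all 5 PLIN5 ASO libraries, highest in 3 and 5. The growth hormone axis with major urinary proteins and the list of endoplasmic reticulum (ER) chaperones, which includes Selenbp2, are high in PLIN5 ASO 1, 3 and 5 only.

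Growth signalling genes had 3 falls. In the list of ERK feedback and immediate early genes 30 of 35 were lower, against 6382 of all 13293 genes (median -0.43). The 3 falls, against 0.572% of all genes, were Dusp6, Plk2 and Btg2. Dusp6 encodes the phosphatase that switches off ERK and is itself induced by ERK. It fell from 117, 142, 155 and 144 CPM to 43.5, 77.5, 53.4, 75.2 and 52.8 CPM without overlap (-1.20, SE 0.22, adjusted p = 0.0163; 7 of 9 runs). PLIN5 ASO 1, 3 and 5 were the lowest. Plk2, a stress-induced polo-like kinase, fell from 10.5, 9.87, 9.46 and 9.63 CPM to 2.63, 3.22, 5.29, 3.41 and 4.397 CPM (-1.38, SE 0.18, adjusted p = 0.001; 9 of 9 runs). Btg2, an antiproliferative p53 target, fell from 22.9 to 46.9 CPM to 16.1 to 22.99 CPM (-0.94, SE 0.21, adjusted p = 0.0276; 3 of 9 runs). Nr4a1 (-1.84, SE 0.54, adjusted p = 0.101), Jund (-0.53, SE 0.14, adjusted p = 0.0653) and Gadd45a (-1.66, SE 0.45, adjusted p = 0.0757) lay below every control in all 5 treated libraries without passing. Fos and Egr1 were at -1.15 (SE 0.82, adjusted p = 0.548) and -0.34 (SE 0.60, adjusted p = 0.848). The list had 2 calls with control ASO 3 and 4 merged, 4 without the clock-shifted libraries, and between 1 (without control ASO 4) and 3 with 1 library left out. Gas1, a growth arrest gene, fell from 34.7, 25.8, 28.8 and 21.1 CPM to 9.35, 15.8, 9.12, 16.9 and 12.6 CPM (-1.11, SE 0.21, adjusted p = 0.0163; 7 of 9 runs). Plk2, Btg2 and Gas1 were the 3 calls among 27 genes of p53 targets and the cell cycle (median -0.17), against 0.572% of all genes that fell.

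Cytochrome P450 genes, which encode the drug- and steroid-oxidising enzymes of liver, were mostly lower. Of 42 such genes and xenobiotic receptors 37 were lower, against 6382 of all 13293 genes (median -0.30). Cyp1a2, Cyp2a12 and Cyp2c50 fell and Ahr rose, against 0.572% of all genes that fell and 0.602% that rose. Cyp1a2 fell from 801, 778, 797 and 734 CPM to 591, 489, 399, 394 and 394 CPM without overlap (-0.78, SE 0.12, adjusted p = 0.00294; 9 of 9 runs). Cyp2c50 fell from 715 to 803 CPM to 473, 649, 336, 523 and 480.0 CPM (-0.59, SE 0.13, adjusted p = 0.0314; 1 of 9 runs), and Cyp2a12 fell too (-0.35, SE 0.07; 3 of 9 runs). Ahr, the dioxin receptor gene and a regulator of Cyp1a2, rose from 19.3, 24.9, 27.5 and 23.8 CPM to 27.3, 47.7, 37.9, 45.4 and 39.1 CPM (0.73, SE 0.18, adjusted p = 0.0478; 1 of 9 runs), opposite in direction to Cyp1a2. The summed level of the list was 34148, 34043, 34142 and 33404 CPM in controls and 28023, 33067, 21902, 30377 and 25806 CPM with PLIN5 ASO. All treated libraries lay below the controls, the clock-shifted 3 and 5 lowest and PLIN5 ASO 2 nearest. Of the list, 1 gene passed with control ASO 3 and 4 merged and 1 without the clock-shifted libraries; the count was also 1 without any single control or without PLIN5 ASO 3 or 5, and 2 without PLIN5 ASO 4. Many Cyp2 genes are close paralogs, and their reads may be shared.

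The NRF2 and glutathione list had 2 falls of 33, against 0.572% of all genes (median -0.08). Nfe2l2, the gene of NRF2 itself, fell from 83.7, 91.5, 98.1 and 103 CPM to 66.8, 78.7, 64.96, 72.8 and 67.8 CPM (-0.42, SE 0.10, adjusted p = 0.0343; 1 of 9 runs). Gsta2, a glutathione transferase gene, fell from 18.998, 33.6, 30.6 and 15.6 CPM to 5.89, 16.9, 5.55, 11.2 and 6.53 CPM with overlap in 1 library, PLIN5 ASO 2 (-1.42, SE 0.34, adjusted p = 0.0455; 1 of 9 runs). Neither passed with control ASO 3 and 4 merged or without the clock-shifted libraries.

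Respiratory chain genes had no call. All 33 oxidative phosphorylation genes were lower, between -0.24 and -0.01 (median -0.12), none passed by edgeR or DESeq2, and 10 had an unadjusted p under 0.05, against 2003 of all 13293 genes. Their summed level was 8143, 9019, 9055 and 8485 CPM in controls and 8104, 8543, 7046, 8515 and 7672 CPM with PLIN5 ASO. The groups overlapped, and the 2 lowest libraries were the clock-shifted PLIN5 ASO 3 and 5. Cholesterol synthesis genes were higher in 19 of 24 cases, against 6911 of all 13293 genes (median 0.22). By edgeR none was called and 10 had an unadjusted p under 0.05, against 2003 of all genes, and DESeq2 called 2. Cyp51, a demethylase of that pathway, held 14.1, 16.1, 16.8 and 18.2 CPM in controls and 41.1, 16.3, 63.7, 20.7 and 42.7 CPM with PLIN5 ASO (1.18, SE 0.36, adjusted p = 0.111), high in PLIN5 ASO 1, 3 and 5. Fatty acid synthesis (22 genes, median -0.05) and gluconeogenesis with insulin-FoxO targets (29 genes, median 0.12) had no call by edgeR, with 4 and 10 genes at an unadjusted p under 0.05 and 0 and 1 called by DESeq2. Otc, the urea cycle enzyme ornithine transcarbamylase, was the 1 call of 38 amino acid genes, against 0.602% of all genes that rose. Its level went from 378 to 408 CPM to 463 to 564 CPM (0.34, SE 0.07, adjusted p = 0.0276; 2 of 9 runs). Bile acid genes (24, median 0.0025), the circadian clock (19, median -0.04), cholangiocyte markers (9, median 0.27) and hepatocyte markers (11, median 0.09) had none by edgeR or DESeq2, with 4, 3, 2 and 2 genes at an unadjusted p under 0.05.

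**Figure D4:**
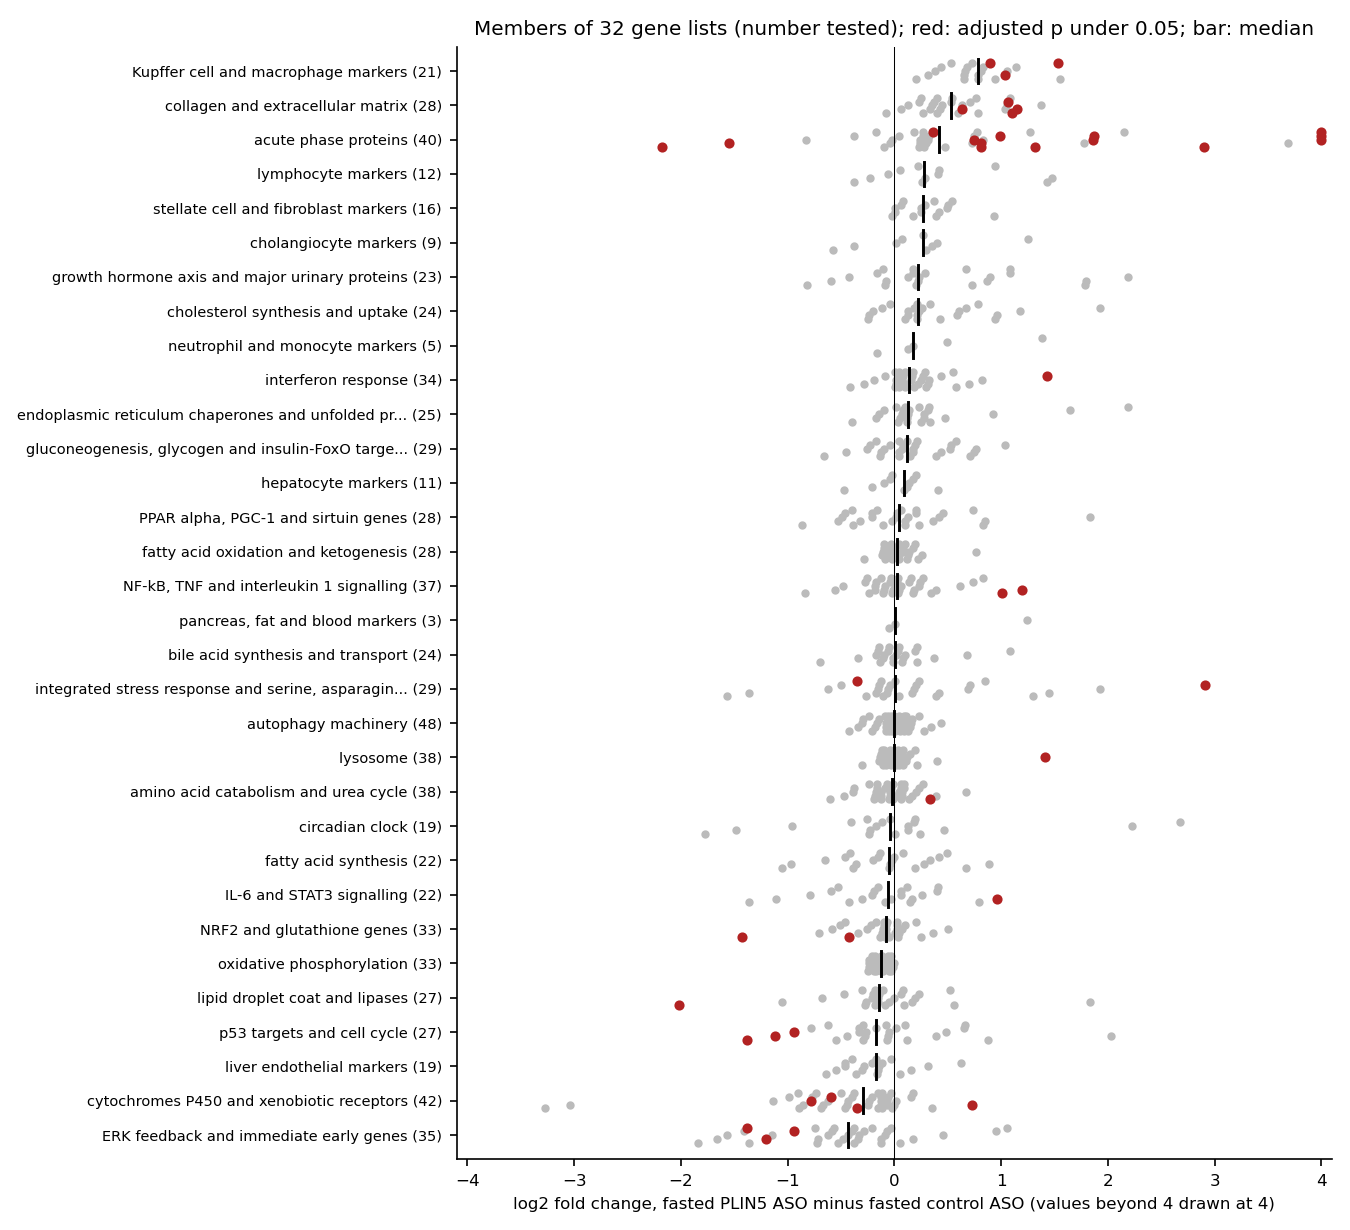
Log2 fold change of each tested member of the 32 gene lists in fasted liver (points; red where the adjusted p was under 0.05) with the list's median (bar) and the number of genes tested in brackets; values beyond 4 are drawn at 4. Kupffer cell and macrophage markers have the highest median (0.78) and ERK feedback and immediate early genes the lowest (-0.43).

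The gene with the smallest p of all was in none of the lists. Rbm14, which encodes a nuclear RNA-binding coactivator found in paraspeckles, fell from 22.97, 29.8, 29.3 and 29.7 CPM to 13.01, 12.96, 13.4, 13.97 and 12.4 CPM (-1.09, SE 0.11, adjusted p = 0.000136). The 5 treated libraries spanned 12.4 to 13.97 CPM, all below the lowest control. Ncam2, a neural cell adhesion gene, was low in liver, at 1.43, 2.93, 2.702 and 1.699 CPM in controls, and fell to 0.399, 0.521, 0.682, 0.562 and 0.209 CPM (-2.19, SE 0.32, adjusted p = 0.00294). Btbd19 fell from 4.11, 8.95, 7.96 and 8.35 CPM to 1.697, 2.21, 2.34, 1.65 and 3.25 CPM (-1.72, SE 0.29). Armcx4 rose from 0.480 to 0.991 CPM to 1.697 to 2.82 CPM (1.45, SE 0.25). Cpne8, a copine gene, rose from 0.428 to 1.52 CPM to 1.65 to 3.83 CPM (1.41, SE 0.33; 2 of 9 runs). Ddah1, whose product degrades an inhibitor of nitric oxide synthase, fell from 126, 131, 139 and 112 CPM to 24.6, 79.2, 34.998, 100.2 and 40.9 CPM (-1.18, SE 0.29, adjusted p = 0.0478; 2 of 9 runs), least in PLIN5 ASO 2 and 4. Id2, an inhibitor of basic helix-loop-helix factors, chosen after its values were seen, fell from 247, 178, 177 and 179.9 CPM to 112, 69.9, 114, 69.9 and 100.4 CPM (-1.07, SE 0.16, adjusted p = 0.00294).

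The treated livers differed more among themselves than the controls. The SD of log2(CPM + 1) was larger with PLIN5 ASO than with control ASO in 67.4% of all genes tested, with medians of 0.17 and 0.13. Among called rises the medians were 0.26 and 0.15, and among called falls 0.17 and 0.16. The controls include the close pair 3 and 4. The genes of largest spread within fasted PLIN5 ASO were Moxd1, Mup8, Saa2, Saa1, Saa3, Lcn2, Rgs16, Cyp2d34, Acot3 and Dbp. Moxd1, a monooxygenase-like gene, held 1.11, 0.214, 0.240 and 0.319 CPM in controls and 215, 0.456, 241, 0.843 and 165 CPM with PLIN5 ASO. It was thus nearly off in PLIN5 ASO 2 and 4 and high in 1, 3 and 5, and did not pass (8.001, SE 2.26, adjusted p = 0.0923). Mup8, of the major urinary proteins that liver secretes, held 1.57, 1.22, 1.44 and 1.81 CPM and 114, 1.595, 558, 1.404 and 6.84 CPM (6.50, SE 2.21, adjusted p = 0.159). The growth hormone axis and major urinary proteins summed to 19287, 20315, 20778 and 23160.2 CPM in controls and 40514, 20682, 43956, 20639 and 41463 CPM with PLIN5 ASO. PLIN5 ASO 1, 3 and 5 were again high and 2 and 4 within the control range, and none of 23 passed by edgeR (8 at an unadjusted p under 0.05, DESeq2 called 1). Major urinary protein genes are near-identical copies, so the split of reads among them is uncertain. Rgs16 and Acot3 followed another order, low in the clock-shifted libraries: Rgs16 held 227, 405, 8.02, 324 and 70.3 CPM and Acot3 11.8, 82.6, 2.31, 91.5 and 17.2 CPM with PLIN5 ASO.

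With the ASO against Plin5 in re-fed liver, the test called 183 of 13293 genes (1.38%). Of the 156 genes called in fasted liver, 117 had the same sign in re-fed liver (59 rises and 58 falls). The share with the same sign was not computed over all genes tested, so this count has no background here. In both states 20 genes were called, all in the same direction (12.8% of the fasted and 10.9% of the re-fed calls). The median size of the log2 fold change of the 156 was 0.81 in fasted liver, where they were chosen, and 0.24 in re-fed liver. In re-fed liver the control ASO libraries 3 and 5 were clock-shifted as well (Dbp at 11.55 and 1.82 CPM, against 50.2 to 132 CPM in the other re-fed controls), and 45 genes were called in re-fed liver when the clock-shifted libraries of both feeding states were left out. The 20 genes called in both states included Plin5, Ncam2, Plk2, Rbm14, Mt2, Armcx4, Il1r1 and Otc. Rbm14 was at -0.70 (SE 0.11, adjusted p = 0.00692) in re-fed liver and Mt2 at 3.62 (SE 0.64, adjusted p = 0.0126). Of the 40 acute phase genes tested 3 rose in re-fed liver, Mt2 among them, against 0.812% of all genes. Saa2, Lcn2 and Fgl1 were not called there: Saa2 was at -0.80 (SE 0.89, adjusted p = 0.665), Lcn2 at 1.12 (SE 0.67, adjusted p = 0.374) and Fgl1 at 0.25 (SE 0.34, adjusted p = 0.737). Asns was at -0.14 (SE 0.56, adjusted p = 0.918). The test of the difference between the states did not pass for these genes, with adjusted p of 0.118 for Saa2, 0.168 for Lcn2, 0.202 for Fgl1 and 0.178 for Asns.

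**Figure D5:**
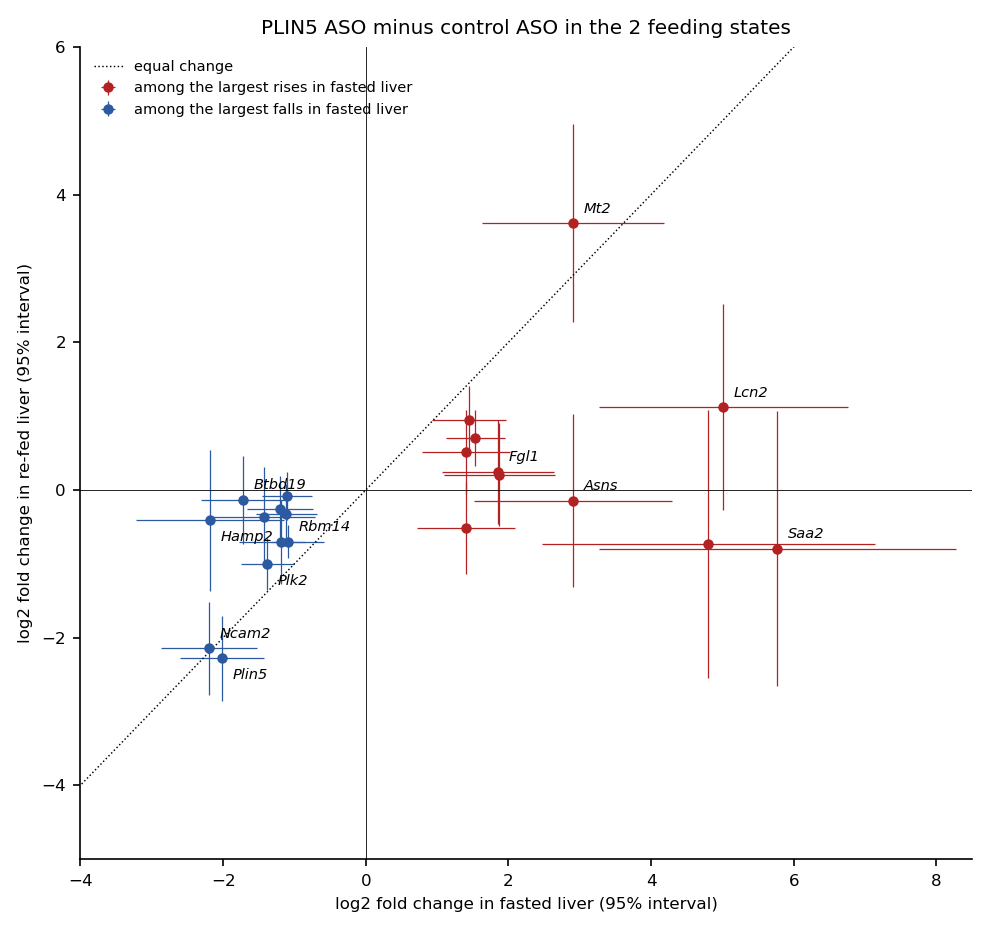
Log2 fold change of PLIN5 ASO minus control ASO in fasted liver (x axis) and re-fed liver (y axis) for the named genes of the 12 largest rises and 12 largest falls of fasted liver, with 95% intervals; the dotted line is an equal change. Plin5, Ncam2 and Mt2 lie near that line, and Saa2, Lcn2 and Asns lie far below it.

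By the test of the difference itself, 3 of 13293 genes passed (0.0226%), Rnf144b and Dpm3 among them, with 1991 at an unadjusted p under 0.05 and 95 called by DESeq2. Rnf144b, a ubiquitin ligase gene, rose in fasted liver from 25.4, 25.5, 25.5 and 26.6 CPM to 42.7, 51.9, 52.1, 51.7 and 47.9 CPM (0.94, SE 0.15, adjusted p = 0.00558). In re-fed liver it was at 44.1 CPM ± 12.6 (SD, n = 5) with control ASO and 37.03 CPM ± 2.17 (SD, n = 5) with PLIN5 ASO (-0.25, SE 0.14, adjusted p = 0.326), and the difference of the effects was 1.19 (SE 0.20, adjusted p = 0.0482). Dpm3, a subunit gene of dolichol phosphate mannose synthase, was at -0.29 (adjusted p = 0.0544) in fasted and 0.30 (adjusted p = 0.0362) in re-fed liver, a difference of -0.60 (SE 0.10, adjusted p = 0.0482). No gene passed this test by edgeR when any 1 fasted library other than PLIN5 ASO 2 was left out (2 passed without that one) or with control ASO 3 and 4 merged, and 4 passed without the clock-shifted libraries of both feeding states.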

How the data were processed

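RNA from whole liver was sequenced in 19 libraries, with groups taken from the GEO labels. The deposited counts are whole-number read counts per gene symbol. Per the submitters' processing notes, which give no roles, Subread, edgeR, HISAT2 2.0.2, Cuffdiff 2.2.1 and FastQC were used with the builds mm10 and GRCm38. The authors also deposited FPKM values, used only for alternatives. The handling of multi-mapping reads and of strand is not stated there. Of 24421 symbols in the count table, 27 had been turned into dates and none of those was named.

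Counts were fitted with edgeR 4.0.16 in R 4.3.3: TMM scaling, filterByExpr by group with a minimum count of 10, 1 mean per group over all 19 libraries, the two-sided quasi-likelihood F test and Benjamini-Hochberg adjustment over 13293 genes, at 0.05. The scripts were tested on simulated data. Alternatives were RLE size factors, other filters, DESeq2 1.42.0, the 9 fasted libraries alone, a replicate block, each fasted library left out, control ASO 3 and 4 as 1 sample, the clock-shifted libraries left out, and limma 3.58.1 on log2(FPKM + 1) and log2(FPKM + 0.1).

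Named genes were Plin5, the 12 largest called rises and falls with a group mean of at least 2 CPM (unnamed gene models left out), called members and the 3 smallest p of each list, a set of lipid, autophagy and cytokine genes, and the 10 genes of largest spread. Some genes that this rule takes are not reported here, but counts and medians include them. Other genes named were chosen after their values were seen. The members and the 32 lists were chosen with earlier results of these data known. Of 851 list genes, 846 were in the table and 802 were tested. Promoters are the 250 bases before gene starts in RefSeq (GRCm38.p6).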

Additional observations from a re-analysis of the deposited data

Results flagged for a closer look

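Single libraries were set apart by a gap that was large for the range of their group in 19 of 236 gene and group pairs (118 genes named in the text, 2 fasted groups). The gap itself can be small: Rnf144b was flagged at 26.6 CPM in control ASO 5, against 25.4 to 25.5 CPM in the other controls. Chance gives such a gap in about 1 of 20 groups of independent samples. Of these pairs 17 were in controls and 2 in PLIN5 ASO. Control ASO 3 and 4 were nearly alike (chi-square per degree of freedom 3.21, against at least 18.4 for other fasted pairs), so the 4 controls may not be independent and that rate may not hold for them.

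In control ASO 1 the highest value of the group stood apart for Asns (1.86 CPM), Cyp2c50 (803 CPM), Derl3 (7.63 CPM), Fos (17.9 CPM), Id2 (247 CPM), Lrg1 (712 CPM), Moxd1 (1.11 CPM), Mt1 (69.4 CPM), Sqstm1 (369 CPM) and Tnc (0.457 CPM). In the same library the lowest value stood apart for Angptl4 (87.0 CPM), Bscl2 (49.3 CPM) and Rbm14 (23.0 CPM). In control ASO 5 the highest value stood apart for G0s2 (598 CPM) and Rnf144b (26.6 CPM), and the lowest for Col14a1 (16.2 CPM) and Ppargc1a (5.13 CPM). In fasted PLIN5 ASO the highest Mup8 value, in library 3 (558 CPM), and the lowest Ulk1 value, in library 4 (69.1 CPM), stood apart.

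The effect of the ASO differed between fasted and re-fed liver by the test of the difference (fasted minus re-fed, log2 scale) for Rnf144b (1.19) and Dpm3 (-0.60), each with an adjusted p of 0.0482 in edgeR's quasi-likelihood test.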

How the results depend on the processing

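Plin5 fell in every setting run, with log2 fold changes from -2.47 to -1.90, and no called result reversed. Genes that were not called could change sign: without the clock-shifted libraries Plin2 went from 0.06 to -0.23 and Becn1 from -0.03 to 0.02, and Ppara and Il1b crossed 0 when single libraries were left out. Of 156 calls in fasted liver, the count became 427 with DESeq2, 36 with control ASO 3 and 4 as 1 sample and 70 with limma on FPKM without a filter. It ranged from 22 to 186 with 1 fasted library left out, lowest without control ASO 5. Of the 40 list genes called, the count became 73 with DESeq2, 20 in a fit of the 9 fasted libraries, 9 with control ASO 3 and 4 as 1 sample, 22 without the clock-shifted libraries and 16 with limma on FPKM without a filter, with a range of 7 to 52 with 1 library left out. Of the 183 calls in re-fed liver, the count became 620 with DESeq2 and 45 without the clock-shifted libraries, with a range of 106 to 178 with 1 fasted library left out. For the difference between feeding states (3 genes), the count became 95 with DESeq2, 0 without a filter on low counts, 0 with control ASO 3 and 4 as 1 sample and 0 with limma on FPKM at either pseudocount with a filter (3 without one), with a range of 0 to 2 with 1 library left out. An alternative chosen after seeing the data left out the clock-shifted libraries and took control ASO 3 and 4 as 1 sample; it gave 15 calls in fasted liver, 5 list genes, 11 in re-fed liver and 0 for the difference. The cause of these changes was not tested, beyond the smaller number of libraries in some settings.

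The replicate block gave 253 calls in fasted liver over all 19 libraries and 77 over the 9 fasted libraries, 290 in re-fed liver and 1 for the difference. The labels do not state whether same-numbered libraries share more than a number. Over 4 same-numbered fasted pairs the deviations correlated at -0.15 to 0.17, and 2 pairs were above 0.1. So few pairs cannot decide the question. Not every library correlated best with its own number. Depth of 28210530 to 33949977 counts per fasted library leaves cytokine genes such as Il6 and Tnf too low to test.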

Other observations

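Further genes called in fasted liver lie outside the lists, and the following were chosen after their values were seen. Smad6, which encodes an inhibitor of BMP signalling, fell from 6.69 to 9.31 CPM to 3.23 to 4.49 CPM (-0.98, SE 0.21, adjusted p = 0.0275 by edgeR's quasi-likelihood test). Its call held in 1 of 9 runs that left out 1 library, and it passed neither with control ASO 3 and 4 merged (adjusted p = 0.0751) nor without the clock-shifted libraries (adjusted p = 0.0949). Tbx3, a T-box transcription factor gene, fell from 36.2 to 59.7 CPM to 19.8 to 28.9 CPM (-0.88, SE 0.19, adjusted p = 0.0296; 1 of 9 runs). Sp5, a zinc finger transcription factor gene, fell from 3.09 to 5.74 CPM to 1.49 to 3.06 CPM (-0.995, SE 0.22, adjusted p = 0.0329; 2 of 9 runs). Rnf43, a ubiquitin ligase gene, fell from 32.8 to 39.6 CPM to 20.4 to 27.9 CPM (-0.59, SE 0.13, adjusted p = 0.0275; 3 of 9 runs), and Tcf7 from 3.66 to 4.29 CPM to 2.27 to 3.09 CPM (-0.53, SE 0.12, adjusted p = 0.0407; 1 of 9 runs).

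Dll4, a Notch ligand of endothelium, fell from 1.35 to 2.02 CPM to 0.421 to 1.01 CPM (-1.28, SE 0.26, adjusted p = 0.0258; 4 of 9 runs). Abca3, a lipid transporter gene, fell from 36.99 to 39.2 CPM to 18.2 to 29.03 CPM (-0.82, SE 0.14, adjusted p = 0.00707; 9 of 9 runs) and was called in re-fed liver too (-0.70, SE 0.13, adjusted p = 0.0164). Cd38, the gene of an enzyme that consumes NAD, fell from 4.91 to 5.93 CPM to 2.605 to 3.63 CPM (-0.78, SE 0.17, adjusted p = 0.0275; 4 of 9 runs) and was called in re-fed liver (-1.13, SE 0.16, adjusted p = 0.00278). Cav1, which encodes caveolin 1, was at 0.920 to 2.63 CPM in controls and 2.96 to 6.36 CPM with PLIN5 ASO (1.16, SE 0.26, adjusted p = 0.0339; 2 of 9 runs).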
